A study of Danio rerio with 18 samples.

Results

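The genes described here are zar1 (ENSDARG00000019706) and zar1l (ENSDARG00000055973), the 2 rows of the deposited table that carry these symbols among its 25432 genes, and both passed the filter on low values. They were followed through 18 zebrafish ovary RNA-seq libraries in 4 groups: 5 libraries of mature eggs from sinhcaf-/- fish, 5 of wild-type mature eggs, 4 of FG follicles from sinhcaf-/- fish and 4 of wild-type FG follicles. FG is used as the labels give it. A library held pooled eggs or pooled follicles, all from 1 female, which makes the fish the replicate. The labels give no strain, age, sinhcaf allele or agent, and "mutant" stands for sinhcaf-/- from here on. Sinhcaf is a subunit of the Sin3 histone deacetylase complex, which holds genes in a less active state.

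An oocyte makes its mRNA while it grows, stores much of it untranslated, and then matures with little or no new transcription, so that the egg carries a stock of maternal mRNA into the embryo. The zygote arrest proteins Zar1 and Zar1l (also called Zar2) are oocyte RNA-binding proteins with a zinc finger of similar sequence at the C-terminus. In mice, loss of Zar1 stops embryos of the mutant mother at the one-cell stage, and Zar1 and Zar2 together keep maternal mRNA stable. In Xenopus oocytes, Zar proteins bind control elements in the 3' UTR of mRNAs such as those of Wee1 and Mos and hold back their translation, and in zebrafish Zar1 binds mRNAs of zona pellucida proteins and loss of Zar1 stops oogenesis.

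The 2 genes ran in opposite directions between the stages and differed in their relation to genotype. zar1 was 31.9-fold lower in eggs than in FG follicles of mutants and 27.7-fold lower in wild type, and no difference between mutant and wild type passed the test at either stage. The size of these stage differences depended on how libraries were scaled, their direction did not, as given with the stage comparison. zar1l was 2.098-fold higher in eggs than in FG follicles of mutants and 2.28-fold higher in wild type. It was 2.51-fold lower in mutant than in wild-type eggs and 2.32-fold lower in mutant than in wild-type FG follicles. The folds are of FPKM + 1, where FPKM counts fragments scaled by the length of the gene model and by the mapped fragments of the library, and tests are limma's moderated tests over 10547 genes with Benjamini-Hochberg adjustment and a threshold of 0.05.

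Some features of the libraries bear on every value. Depth is not known, since the table holds no read counts, and the error of a value is the spread over fish. Egg libraries 4 and 5 of both genotypes stood apart from libraries 1 to 3: 7914 to 7917 genes in mutants and 7682 to 7701 in wild type reached an FPKM of 1 in libraries 4 and 5, against 6977 to 7424 in mutants and 6929 to 7183 in wild type in libraries 1 to 3. Mutant FG follicle libraries 1 and 3 were more alike (r = 0.994 across genes) than the other pairs of their group (0.964 to 0.974). FG follicle libraries had 9854 to 10120 such genes in mutants and 9722 to 9866 in wild type. Genes of the mitochondrial genome took 37.1 to 51.0% of the summed FPKM in mutant eggs, against 33.1 to 37.9% in wild-type eggs, and 7.64 to 13.8% in mutant FG follicles and 14.0 to 17.7% in wild-type FG follicles. Oocyte markers were present in all groups, though figla averaged only 0.614 to 1.90 FPKM. The sum of 9 markers was 2625 to 3463 FPKM in mutant eggs, against 2790 to 3209 in wild-type eggs. In FG follicles it was 2528 to 2681 in mutants and 2790 to 3175 in wild type. Its largest part was h1m, with means of 2038 FPKM in mutant eggs, 1913 in wild-type eggs, 879 in mutant FG follicles and 1301 in wild-type FG follicles. Single markers differed between stages in opposite directions. dazl averaged 900 and 884 FPKM in mutant and wild-type eggs, against 104 and 168 in FG follicles. buc averaged 29.3 and 22.1 in eggs, against 743 and 937. The sum thus does not show a constant part of oocyte RNA. In these bulk pools, fewer cells of a type and less RNA per cell cannot be told apart.

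The targeted gene was low in all groups and not absent from mutants. sinhcaf averaged 0.248 ± 0.0651 FPKM in mutant eggs, against 0.726 ± 0.509 in wild-type eggs (SD, n = 5 each), with no overlap. The gap was narrow, with a highest mutant egg library of 0.351 FPKM and a lowest wild-type one of 0.361. How many genes lack overlap in eggs is not given here. In FG follicles sinhcaf averaged 0.607 ± 0.315 FPKM in mutants, against 2.14 ± 1.12 in wild type (SD, n = 4 each), where the ranges overlapped. limma called the FG follicle difference (log2 difference -0.90, adjusted p = 0.0115) and not that in eggs (-0.42, adjusted p = 0.21). Neither member stands on the chromosome of sinhcaf in the RefSeq gene table of the GRCz12tu assembly.

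zar1 had high FPKM in FG follicles and low FPKM in eggs. Its FPKM in mutant eggs 1 to 5 was 5.52, 6.61, 5.35, 8.16 and 6.60, against 6.98, 4.48, 5.44, 4.38 and 5.13 in wild-type eggs 1 to 5. In mutant FG follicles 1 to 4 it was 300.5, 205.2, 302.2 and 161.9, against 138.5, 208.4, 107.1 and 279.0 in wild-type FG follicles 1 to 4. The egg and follicle ranges lay far apart, while mutant and wild-type ranges overlapped at both stages. In rank by FPKM among all genes of a library, zar1 stood between places 3576 and 3958 in mutant eggs and between 3468 and 4627 in wild-type eggs. In FG follicles it stood between places 119 and 268 in mutants and between 156 and 495 in wild type.

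zar1l was readily measured at both stages, and its order across groups was another one. Its FPKM in mutant eggs 1 to 5 was 94.2, 95.8, 87.1, 39.5 and 43.2, against 219.8, 205.6, 278.3, 128.5 and 87.5 in wild-type eggs 1 to 5. In mutant FG follicles 1 to 4 it was 36.2, 27.2, 33.7 and 29.3, against 72.3, 70.2, 81.1 and 73.3 in wild-type FG follicles 1 to 4. In FG follicles every mutant library was below every wild-type library. In eggs 1 wild-type library, number 5, lay below mutant libraries 1 and 2. zar1l stood between places 534 and 1259 in mutant eggs, against 187 and 616 in wild-type eggs, and between 1567 and 2051 in mutant FG follicles and 705 and 855 in wild-type FG follicles.

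**Figure D1:**
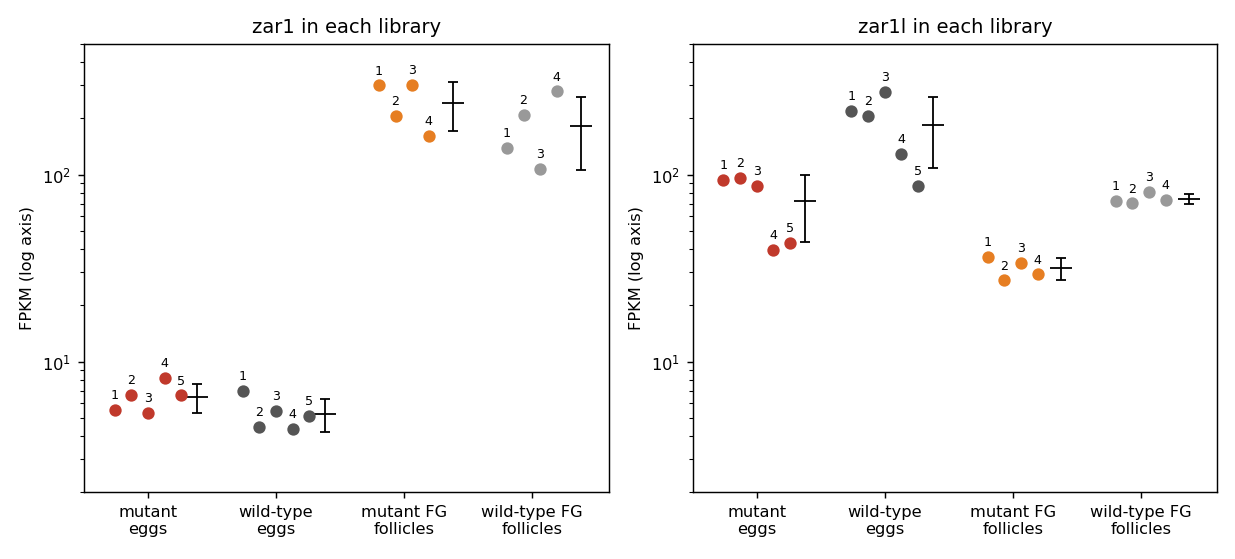
FPKM on a log axis of zar1 (left) and zar1l (right) in each of the 18 libraries, numbered by replicate, with the mean and SD of each group as a bar beside the points. zar1 sits between 4.38 and 8.16 FPKM in eggs and between 107.1 and 302.2 in FG follicles, and zar1l is lower in mutants at both stages.

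Ordered from the highest group mean to the lowest, zar1 averaged 242 ± 70.3 FPKM in mutant FG follicles, 183 ± 76.6 in wild-type FG follicles (SD, n = 4 each), 6.45 ± 1.12 in mutant eggs and then 5.28 ± 1.05 in wild-type eggs (SD, n = 5 each). The only break in this order without overlap was that between follicles and eggs. For zar1l the order was wild-type eggs with 184 ± 75.9 FPKM (SD, n = 5), wild-type FG follicles with 74.25 ± 4.77 (SD, n = 4), mutant eggs with 72.0 ± 28.2 (SD, n = 5) and mutant FG follicles with 31.6 ± 4.10 (SD, n = 4). Wild-type eggs and wild-type FG follicles did not overlap, nor did mutant eggs and mutant FG follicles, while the mutant egg range of 39.5 to 95.8 held all 4 wild-type FG follicles. The gaps were narrow, with a lowest egg of 87.5 against a highest follicle of 81.1 in wild type, and 39.5 against 36.2 in mutants. How many genes lack overlap between stages is not given here, where limma called 81.7% of tested genes in mutants and 82.9% in wild type. The relative spread of zar1l between fish was small in FG follicles, with a coefficient of variation of 13.0% in mutants and 6.43% in wild type, and larger in eggs, with 39.1% in mutants and 41.3% in wild type. zar1 varied more between FG follicle pools, with 29.0% in mutants and 41.8% in wild type, than between egg pools, with 17.4% in mutants and 19.8% in wild type. These differences in spread were not tested.

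The egg contrast took mutant minus wild type, with different fish in each group. zar1l was lower by 1.33 on the log2 scale, a log2 difference of -1.33 (SE 0.28, 95% interval -1.93 to -0.73, adjusted p = 0.00314), which was the 132nd lowest value of 10547 genes. Over the same contrast limma called 15.1% of tested genes in either direction and 7.71% as lower. An exact two-sided permutation test of zar1l alone gave p = 0.0238, and 0.0416 after adjustment over the 16 such tests run on both genes, their ratio and their sum. zar1 had a log2 difference of 0.25 (SE 0.23, 95% interval -0.22 to 0.72, adjusted p = 0.532). With that interval a small rise or fall of zar1 in mutant eggs was not detectable.

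The difference of zar1l in eggs was about the same inside both sets of egg libraries. The sets were formed by replicate number after the number of detected genes and the values of zar1l were seen. In libraries 1 to 3 zar1l averaged 92.4 FPKM in mutants, against 235 in wild type, with a log2 difference of -1.32 (limma on these libraries, SE 0.14, adjusted p = 0.00165). In libraries 4 and 5, with only 2 libraries per genotype, it averaged 41.3 FPKM in mutants and 108 in wild type. The log2 difference there was -1.34 (SE 0.21, limma adjusted p = 0.0401). zar1l was lower in libraries 4 and 5 than in libraries 1 to 3 in both genotypes, so the split itself narrowed its spread. The adjusted p within the sets are therefore not separate support for the difference over all egg libraries. zar1 had log2 differences of 0.05 in libraries 1 to 3 and 0.54 in libraries 4 and 5, neither of which passed the test (limma adjusted p = 0.896 and 0.192).

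In FG follicles zar1l was again the lower in mutants, with a log2 difference of -1.21 (SE 0.32, 95% interval -1.88 to -0.55, limma adjusted p = 0.0095), the 254th lowest of all tested genes. Here limma called 23.5% of tested genes in either direction and 13.4% as lower, and 18.2% of tested genes had every mutant library below every wild-type library, as zar1l did. The exact two-sided permutation test gave p = 0.0286, the smallest that 4 against 4 libraries allow, and 0.0416 after adjustment. With mutant libraries 1 and 3 averaged and counted as 1 it was -1.26 (limma adjusted p = 0.0176). With median-of-ratios scaling the log2 difference was -1.18 and the adjusted p of limma was 0.057. zar1 had a log2 difference of 0.45 (SE 0.25, 95% interval -0.08 to 0.98, limma adjusted p = 0.216), which ran from 0.22 without wild-type library 3 to 0.68 without wild-type library 4.

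Summed markers of other ovarian cells are given beside these values. Of 6 tested granulosa cell markers 1 was called higher in mutant eggs, cyp11a1, and 1 in mutant FG follicles, inha. That is 16.7% of the list at each stage, against 15.1% of all tested genes in eggs and 23.5% in FG follicles. The sum of 11 granulosa cell markers was 99.0 to 204.5 FPKM in mutant FG follicles and 46.2 to 90.6 in wild-type FG follicles, and 37.0 to 135 in mutant eggs, against 27.5 to 36.6 in wild-type eggs. A single gene carried most of it: cyp11a1, of steroid synthesis, averaged 85.8 FPKM in mutant eggs, against 30.8 in wild-type eggs, and 92.6 in mutant FG follicles, against 52.6 in wild-type FG follicles (limma adjusted p = 0.0112 in eggs and 0.143 in FG follicles). Of these markers amh, foxl2a, cyp19a1a and fshr averaged under 0.1 FPKM in all 4 groups. Others were present in FG follicles, with higher means in mutants. inha averaged 27.1 FPKM in mutant FG follicles, against 4.22 in wild-type FG follicles (limma adjusted p = 0.00638). hsd3b1 averaged 8.65 FPKM against 2.62 there, and lhcgr 4.38 against 2.165. In eggs inha, hsd3b1 and lhcgr averaged at most 0.321 FPKM. The egg sum was thus nearly all cyp11a1 and does not show a part of granulosa cells in eggs. At an unadjusted limma p under 0.05, 4 of the 6 tested were higher in mutant FG follicles and 0 lower. The share of all tested genes at that unadjusted p is not given here. The sum of 8 theca and stroma markers was 33.4 to 56.2 FPKM in mutant FG follicles and 42.0 to 62.5 in wild-type FG follicles, and 62.4 to 85.6 in mutant eggs, against 62.4 to 99.1 in wild-type eggs. Most of that sum was cyp17a1, with 69.9 FPKM in mutant eggs, against 75.8 in wild-type eggs, and 44.7 in mutant FG follicles, against 52.7 in wild-type FG follicles. With cyp17a1 higher in eggs than in FG follicles, the sum does not show a part of theca cells in eggs. Of 3 tested theca and stroma markers, 1 was called lower in mutants at each stage, fn1a, and 0 higher. That is 33.3% of this short list, against 15.1% of all tested genes in eggs and 23.5% in FG follicles. fn1a averaged 0.636 FPKM in mutant eggs, against 2.26 in wild-type eggs (limma adjusted p = 1.34e-07). In FG follicles it averaged 0.202 FPKM in mutants, against 0.563 in wild type (limma adjusted p = 0.00824). The sum of 5 leukocyte markers was 1.64 to 8.90 FPKM in mutant FG follicles and 1.13 to 1.96 in wild-type FG follicles, and at most 0.169 in mutant eggs, against 0.268 in wild-type eggs. The only tested one, cd74a, was called higher in mutant FG follicles, with 3.99 FPKM against 1.27 in wild type (limma adjusted p = 0.0153). It was not called in eggs (limma adjusted p = 0.983). The sum of 2 erythrocyte markers was 0.887 to 6.87 FPKM in mutant FG follicles and 1.59 to 4.14 in wild-type FG follicles, and at most 0.254 in mutant eggs, against 0.0840 in wild-type eggs. The part of other cells in the zar1l difference was not tested.

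The mutant difference of zar1l was not shown to vary with stage. The difference between the egg and the FG follicle contrast was -0.12 on the log2 scale (SE 0.43, 95% interval -1.01 to 0.78, limma adjusted p = 0.904) for zar1l and -0.20 (SE 0.34, 95% interval -0.91 to 0.51, limma adjusted p = 0.77) for zar1, against 6.95% of tested genes called. The intervals are wide, so a difference between stages of up to about 1 on the log2 scale in zar1l was not detectable here. Of all tested genes, 4.18% were called lower in mutants at both stages, and zar1l was one of these.

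**Figure D2:**
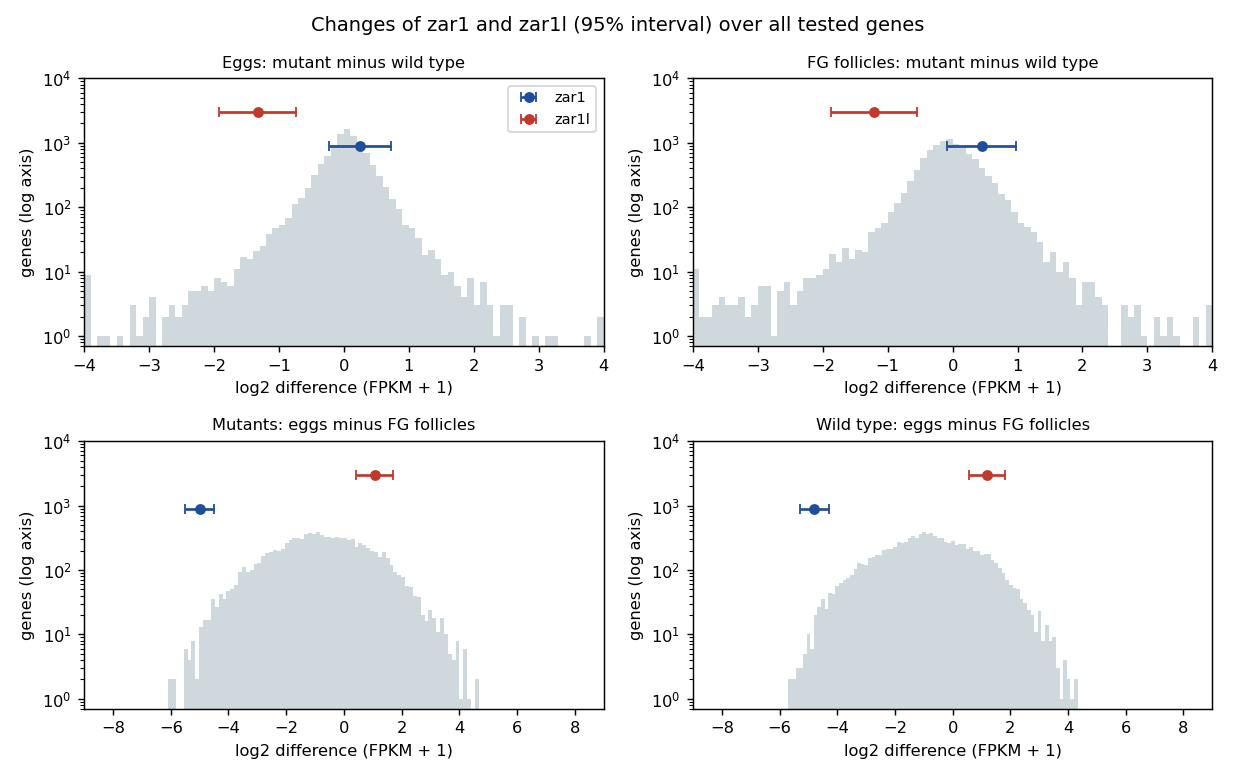
Histograms of the log2 difference of all 10547 tested genes (number of genes on a log axis; values past the ends of the axis are drawn in the end bins), with zar1 and zar1l as points with 95% intervals, for mutant minus wild type at each stage (top) and eggs minus FG follicles in each genotype (bottom). zar1l lies at -1.33 and -1.21 in the genotype panels, and in the stage panels zar1 and zar1l lie on opposite sides of 0.

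Between the stages most genes moved. limma called 81.7% of tested genes between eggs and FG follicles of mutants and 82.9% in wild type, of which more were lower in eggs: 58.3% of tested genes in mutants and 60.8% in wild type. As a share of calls, those higher in eggs made up 28.7% in mutants and 26.7% in wild type, 20.1 and 22.4% after rescaling to the same FPKM sum, and 47.4% in both with median-of-ratios scaling. The median log2 difference of all genes was -0.79 in mutants and -0.85 in wild type, a value that depends on the scaling of the libraries. zar1 was at the low end, with a log2 difference of -4.99 in mutants (SE 0.24, 95% interval -5.50 to -4.49, limma adjusted p = 6.61e-13) and -4.79 in wild type (SE 0.24, 95% interval -5.29 to -4.29, limma adjusted p = 1.16e-12). These were the 27th and the 35th lowest of 10547 values. Relative to the median of all genes, the log2 difference of zar1 was -4.20 in mutants and -3.95 in wild type. With median-of-ratios scaling the log2 differences themselves were -4.01 in mutants and -3.68 in wild type, and after rescaling to the same FPKM sum they were -5.61 and -5.20.

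zar1l was higher in eggs. limma called 23.4% of tested genes as higher in eggs of mutants and 22.1% in wild type, and zar1l was among them in both. Its log2 difference was 1.07 in mutants (SE 0.30, 95% interval 0.44 to 1.70, limma adjusted p = 0.00316) and 1.19 in wild type (SE 0.30, 95% interval 0.55 to 1.82, limma adjusted p = 0.00135), which is 1.86 and 2.03 above the median of all genes. After rescaling each library to the same FPKM sum, the value in mutants was 0.58 and no longer passed the test (limma adjusted p = 0.0675), while that in wild type was 0.94 (limma adjusted p = 0.00545). With median-of-ratios scaling the values were 2.08 in mutants (limma adjusted p = 7.27e-05) and 2.36 in wild type (limma adjusted p = 1.7e-05). The exact two-sided permutation tests gave p = 0.0317 in mutants and 0.0159 in wild type for zar1l, and p = 0.00794 in both genotypes for zar1, the smallest that 5 against 4 libraries allow. After adjustment these were 0.0423, 0.0363 and 0.0254 in that order. The combination seen for zar1l, higher in eggs of both genotypes and lower in mutants at both stages, was shared by 1.65% of tested genes.

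FPKM is scaled per length, and on that scale both genes were set side by side. This takes the mRNAs of both genes to enter the libraries equally well at each stage, which was not tested. zar1l made up 90.4 ± 5.27% of the summed FPKM of both genes in mutant eggs, against 96.8 ± 1.44% in wild-type eggs (SD, n = 5 each). In FG follicles zar1l made up 11.96 ± 2.35% in mutants, against 30.9 ± 9.92% in wild type (SD, n = 4 each). The leading gene of the pair was thus zar1l in all 10 egg libraries and zar1 in all 8 FG follicle libraries. The shares in mutant FG follicles 1 to 4 were 10.8, 11.7, 10.03 and 15.3%, against 34.3, 25.2, 43.1 and 20.8% in wild-type FG follicles 1 to 4, with no overlap. In mutant eggs 1 to 5 the shares were 94.5, 93.5, 94.2, 82.9 and 86.7%, against 96.9, 97.9, 98.1, 96.7 and 94.5% in wild-type eggs 1 to 5, where mutant library 1 and wild-type library 5 met at the same rounded value.

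As a log2 ratio of zar1l to zar1, each taken as FPKM + 1, the level was 3.20 ± 0.80 in mutant eggs, against 4.78 ± 0.62 in wild-type eggs (SD, n = 5 each), and -2.86 ± 0.31 in mutant FG follicles and -1.198 ± 0.67 in wild-type FG follicles (SD, n = 4 each). The ratio was lower in mutants by 1.58 in eggs, a difference of -1.58 (exact two-sided permutation p = 0.0159, adjusted 0.0363), and by 1.66 in FG follicles, a difference of -1.66 (exact two-sided permutation p = 0.0286, adjusted 0.0416). Between stages the ratio was higher in eggs by 6.06 in mutants and 5.98 in wild type (exact two-sided permutation p = 0.00794, adjusted 0.0254 in each), and by 6.27 and 6.21 with a pseudocount of 0.1.

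The sum of both genes was compared between genotypes at each stage and between stages in each genotype. It was 78.4 ± 27.4 FPKM in mutant eggs, against 189 ± 76.3 in wild-type eggs (SD, n = 5 each), a log2 difference of -1.23 (exact two-sided permutation p = 0.0238, adjusted 0.0416). In FG follicles it was 274 ± 73.8 FPKM in mutants, against 257.5 ± 74.0 in wild type (SD, n = 4 each), and the log2 difference of 0.09 did not pass (exact two-sided permutation p = 0.714). On the deposited FPKM, eggs had a lower sum than FG follicles in mutants, by a log2 difference of -1.83 with no overlap (exact two-sided permutation p = 0.00794, adjusted 0.0254). In wild type that difference was -0.51 and the ranges overlapped (exact two-sided permutation p = 0.238). Whether this stage difference varied with genotype was not tested. The sum was not rescaled. With median-of-ratios scaling, zar1 went from -4.99 to -4.01 in mutants and from -4.79 to -3.68 in wild type. zar1l went from 1.07 to 2.08 and from 1.19 to 2.36. The size of the stage difference of the sum, and in wild type its direction, are therefore not settled.

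**Figure D3:**
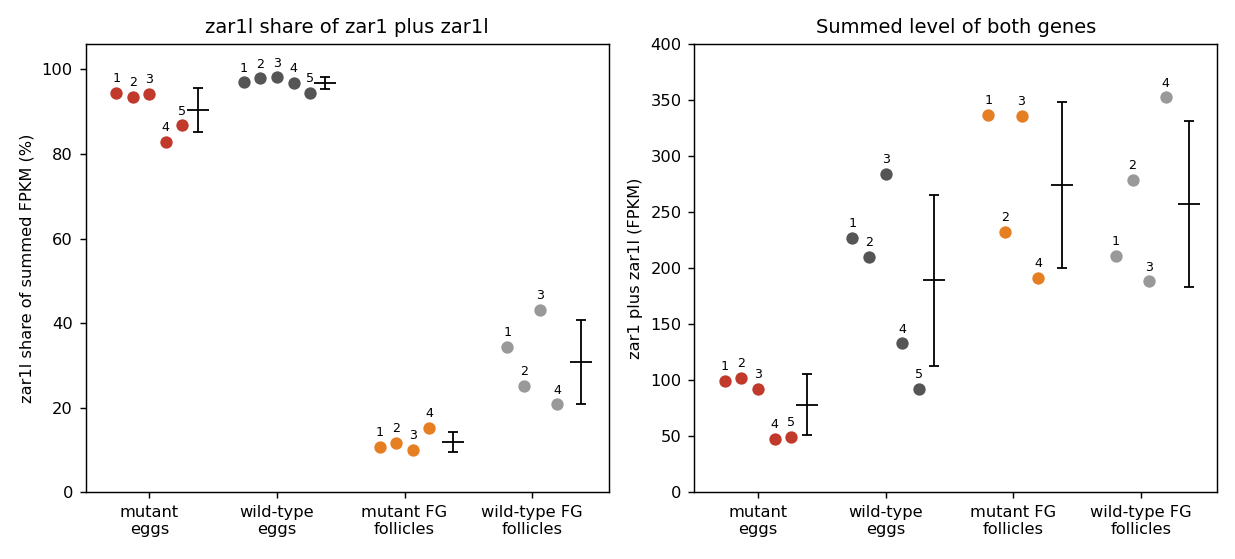
Share of zar1l in the summed FPKM of zar1 and zar1l in percent (left) and the sum itself in FPKM (right) for each library, numbered by replicate, with the mean and SD of each group as a bar. The share is 82.9 to 98.1% in eggs and 10.03 to 43.1% in FG follicles, and the sum is lower in mutant than in wild-type eggs.

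Of the nearest genes on the chromosome, 3 could be tested, and limma called 0 of them between genotypes, where 15.1% of all tested genes were called in eggs and 23.5% in FG follicles. In the order of genes on GRCz12tu, zar1 has fryl and ociad1 on one side and slc10a4 and si:dkey-90m5.4 on the other, and zar1l has fryb and rxfp2a on one side and kl and rfc3 on the other. Only fryl, ociad1 and rxfp2a passed the filter on low values. rfc3, a subunit of the clamp loader of DNA replication, was left untested. It had 0.794 to 1.5 FPKM in mutant FG follicles, against 0.258 to 0.474 in wild-type FG follicles, which did not overlap. How many genes were higher in mutant FG follicles without overlap is not given here. In eggs rfc3 had 0.467 to 0.946 FPKM in mutants, against 0.234 to 0.732 in wild type. ociad1, an endosomal and mitochondrial protein gene, averaged 161 ± 48.6 FPKM in mutant eggs, against 220 ± 44.5 in wild-type eggs (SD, n = 5 each; limma adjusted p = 0.0879), and 114 ± 17.6 FPKM in mutant FG follicles, against 155 ± 21.5 in wild-type FG follicles (SD, n = 4 each; limma adjusted p = 0.129). The limma adjusted p of fryl was 0.216 in eggs and 0.478 in FG follicles, and that of rxfp2a was 0.974 and 0.938.

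Partners and related factors of the Zar proteins were described by lists. Of 39 tested genes of mRNA storage and translational repression, 1 was called higher and 4 lower in mutant eggs, a share of 12.8% against the 15.1% of all genes. In mutant FG follicles 2 were higher and 7 lower, 23.1% against 23.5%. The median log2 difference of the list was -0.05 in eggs and -0.04 in FG follicles, beside 0.04 and -0.05 for all genes. These shares were near the background.

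The largest called fall of this list in eggs was that of eif4enif1. eif4enif1, which encodes the eIF4E-binding repressor 4E-T of oocytes, averaged 65.1 ± 14.7 FPKM in mutant eggs, against 107 ± 4.52 in wild-type eggs (SD, n = 5 each; log2 difference -0.73, limma adjusted p = 0.000577). Within egg libraries 1 to 3 alone eif4enif1 had a log2 difference of -0.74 that did not pass (limma adjusted p = 0.0751). In FG follicles it averaged 24.7 ± 2.91 FPKM in mutants, against 33.0 ± 3.07 in wild type (SD, n = 4 each; log2 difference -0.41, limma adjusted p = 0.0497), a call that was lost under 21 of 28 alternatives. lsm14aa, an Lsm14 protein of RNP granules, averaged 67.8 ± 6.28 FPKM in mutant eggs, against 93.4 ± 12.9 in wild-type eggs (SD, n = 5 each; log2 difference -0.45, limma adjusted p = 0.00558), with no call in FG follicles (log2 difference -0.01). In egg libraries 4 and 5 alone its log2 difference was -0.24 (limma adjusted p = 0.362). larp1, a binder of mRNAs with a 5' oligopyrimidine tract, had a log2 difference of -0.33 in eggs (limma adjusted p = 0.0411, and 0.0643 with the replicate number as a block), lost under 15 of 30 alternatives. patl1, a P-body protein of mRNA decapping, was the gene called higher in mutant eggs, with a log2 difference of 0.29 (limma adjusted p = 0.0289) that was lost under 9 of 30 alternatives. khdrbs1a had a log2 difference of -0.38 in eggs (limma adjusted p = 0.0411), lost under 16 of 30 alternatives.

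ddx6, the RNA helicase of repressed RNPs, did not pass in either genotype contrast. It averaged 32.1 ± 10.5 FPKM in mutant eggs, against 38.9 ± 5.36 in wild-type eggs (SD, n = 5 each; limma adjusted p = 0.357), and 9.15 ± 1.80 in mutant FG follicles, against 5.65 ± 2.08 in wild-type FG follicles (SD, n = 4 each; limma adjusted p = 0.0644). stau2, a binder of double-stranded RNA, fell in mutant FG follicles to 0.552 ± 0.156 FPKM, against 4.89 ± 1.43 in wild type (SD, n = 4 each; log2 difference -1.90, limma adjusted p = 0.000517). The 2 genes called higher in mutant FG follicles were stau1 and larp4aa. stau1 averaged 1.70 ± 0.360 FPKM in mutants, against 0.370 ± 0.277 in wild type (SD, n = 4 each; log2 difference 0.99, limma adjusted p = 0.00143). larp4aa had a log2 difference of 0.45 (limma adjusted p = 0.0184), lost under 5 of 28 alternatives. dazl, the germ cell RNA-binding protein that promotes translation, averaged 104 ± 40.3 FPKM in mutant FG follicles, against 168 ± 50.9 in wild-type FG follicles (SD, n = 4 each; log2 difference -0.73, limma adjusted p = 0.027), a call lost under 8 of 28 alternatives. In eggs dazl had 900 ± 167 FPKM in mutants, against 884 ± 92.1 in wild type (SD, n = 5 each; log2 difference 0.01).

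Between stages this list split: 15 genes were higher and 18 lower in eggs than in FG follicles of mutants, and 14 were higher and 17 lower in wild type. In all 84.6% of the list was called in mutants and 79.5% in wild type, against 81.7 and 82.9% of all tested genes. As zar1l did, dazl was higher in eggs, with log2 differences of 3.17 in mutants (limma adjusted p = 1.07e-10) and 2.42 in wild type (limma adjusted p = 5.12e-09). ybx1, the Y-box protein that masks maternal mRNA, averaged 378 ± 21.2 FPKM in mutant eggs and 86.6 ± 9.79 in mutant FG follicles, and 455 ± 29.3 in wild-type eggs and 110 ± 11.8 in wild-type FG follicles (SD, n = 5 for eggs and 4 for FG follicles). As zar1 did, rbpms2b, an RNA-binding protein of the Balbiani body, was lower in eggs, with log2 differences of -4.28 in mutants (limma adjusted p = 6.6e-14) and -4.34 in wild type (limma adjusted p = 5.41e-14).

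Of 45 tested genes of the poly(A) tail and of mRNA decay, 2 were called higher and 4 lower in mutant eggs, 13.3% of the list, and 3 higher and 7 lower in mutant FG follicles, 22.2%. Both shares were again near those of all genes, and the medians were 0.05 in eggs and -0.02 in FG follicles. cnot7, a deadenylase of the CCR4-NOT complex, averaged 6.73 ± 1.07 FPKM in mutant eggs, against 1.46 ± 0.321 in wild-type eggs (SD, n = 5 each; log2 difference 1.65, limma adjusted p = 2.6e-08), and was also higher in mutant FG follicles (log2 difference 0.86, limma adjusted p = 0.000296). cnot6b, another deadenylase subunit, averaged 10.8 ± 2.42 FPKM in mutant eggs, against 20.5 ± 1.74 in wild-type eggs (SD, n = 5 each; log2 difference -0.88, limma adjusted p = 7.95e-05), though in egg libraries 4 and 5 alone the log2 difference of cnot6b was -0.53 (limma adjusted p = 0.163). In FG follicles cnot6b averaged 9.58 ± 0.175 FPKM in mutants, against 17.96 ± 2.81 in wild type (SD, n = 4 each; log2 difference -0.83, limma adjusted p = 0.000389). pabpc1a, a cytoplasmic poly(A)-binding protein, was lower in mutants at both stages as zar1l was, with log2 differences of -0.86 in eggs (limma adjusted p = 1.55e-05) and -0.49 in FG follicles (limma adjusted p = 0.00633, and 0.122 after rescaling to the same FPKM sum).

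Between stages 10 genes of this list were higher and 28 lower in eggs of mutants, and 9 were higher and 32 lower in wild type, 84.4 and 91.1% of the list, against 81.7 and 82.9% of all tested genes. cnot8, a paralog of cnot7, averaged 637 ± 55.8 FPKM in mutant eggs and 51.5 ± 6.17 in mutant FG follicles, and 627 ± 44.95 in wild-type eggs and 70.7 ± 11.2 in wild-type FG follicles (SD, n = 5 for eggs and 4 for FG follicles). parn, the poly(A)-specific ribonuclease, was lower in eggs of wild type by a log2 difference of -3.96 (limma adjusted p = 1.95e-10), the same direction as zar1.

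A further list held mRNAs of the kinds that Zar proteins bind or that oocytes keep under translational control: 15 tested zona pellucida genes of the egg coat, the Wee1-type kinase gene wee2, whose product holds back Cdk1, and the cyclin B gene ccnb1. Of these 17, 7 were called higher and 0 lower in mutant eggs, and 10 were called higher and 0 lower in mutant FG follicles, 41.2 and 58.8% of the list, against 15.1 and 23.5% of all tested genes. At an unadjusted limma p under 0.05 the counts were 11 higher and 0 lower in eggs and 10 higher and 0 lower in FG follicles. What share of all tested genes reached that unadjusted p is not given here. The medians of the log2 difference were 0.47 in eggs and 0.92 in FG follicles, beside 0.04 and -0.05 for all genes. zona pellucida genes form a family of near copies, and how reads shared by copies were counted is not stated, so values of single members are uncertain. For the same reason the calls of the 15 copies are not separate observations. The list was also chosen with earlier results of these data known. Its counts and medians therefore describe these genes and do not test them against all genes. zp2.5 averaged 6.23 ± 1.45 FPKM in mutant eggs, against 1.38 ± 0.955 in wild-type eggs (SD, n = 5 each; log2 difference 1.67, limma adjusted p = 0.00769), and 155 ± 49.7 in mutant FG follicles, against 19.1 ± 11.3 in wild-type FG follicles (SD, n = 4 each; log2 difference 3.19, limma adjusted p = 4.68e-05). zp3b had log2 differences of 0.87 in eggs (limma adjusted p = 0.00678) and 1.27 in FG follicles (limma adjusted p = 0.000563). The egg calls of zp3b and zp2.2 did not pass in egg libraries 1 to 3 alone (limma adjusted p = 0.0617 and 0.187), and that of zp2.1 did not pass with the replicate number as a block (limma adjusted p = 0.0535) and was lost under 9 of 30 alternatives.

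wee2, whose genotype values were singled out after they were seen, averaged 46.4 ± 9.19 FPKM in mutant eggs, against 28.6 ± 3.61 in wild-type eggs (SD, n = 5 each; log2 difference 0.67, limma adjusted p = 0.00306). In FG follicles it averaged 33.3 ± 6.99 FPKM in mutants, against 15.8 ± 0.815 in wild type (SD, n = 4 each; log2 difference 1.01, limma adjusted p = 0.000145). The egg call of wee2 did not pass within egg libraries 1 to 3 or within 4 and 5 (limma adjusted p = 0.0547 and 0.156), where the log2 differences were 0.77 and 0.52. Between stages all 17 genes were called, where 81.7% of all tested genes were called in mutants and 82.9% in wild type: the 15 zona pellucida genes were lower in eggs in both genotypes, as zar1 was, and wee2 and ccnb1 were higher, as zar1l was, though the call of ccnb1 was lost under 1 of 27 alternatives in mutants and 7 of 27 in wild type. After rescaling to the same FPKM sum wee2 in mutants had a log2 difference of -0.02 between stages.

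Other genes of the oocyte RNP and of maternal control showed few genotype calls. Of 21 tested, limma called 0 in eggs, against 15.1% of all tested genes. In mutant FG follicles 1 was higher and 1 lower, 9.52% of the list, against 23.5% of all tested genes. At an unadjusted limma p under 0.05, 0 were higher and 3 lower in mutant eggs. What share of all tested genes reached that p is not given here. gdf9, a growth factor secreted by the oocyte, averaged 26.5 ± 5.03 FPKM in mutant FG follicles, against 12.3 ± 3.19 in wild-type FG follicles (SD, n = 4 each; log2 difference 1.06, limma adjusted p = 0.000393). h1m, the maternal linker histone, averaged 879 ± 21.2 FPKM in mutant FG follicles, against 1301 ± 115 in wild-type FG follicles (SD, n = 4 each; log2 difference -0.56, limma adjusted p = 0.0016). Between stages 5 were higher and 14 lower in eggs of mutants, and 4 were higher and 13 lower in wild type, 90.5 and 81.0% of the list, against 81.7 and 82.9% of all tested genes. buc, which organizes the Balbiani body, averaged 29.3 ± 9.72 FPKM in mutant eggs and 743 ± 64.8 in mutant FG follicles, and 22.1 ± 5.22 in wild-type eggs and 937 ± 37.6 in wild-type FG follicles (SD, n = 5 for eggs and 4 for FG follicles). pou5f3, a maternal activator of the zygotic genome, had log2 differences of 3.50 in mutants (limma adjusted p = 2.11e-13) and 3.31 in wild type (limma adjusted p = 4.56e-13).

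**Figure D4:**
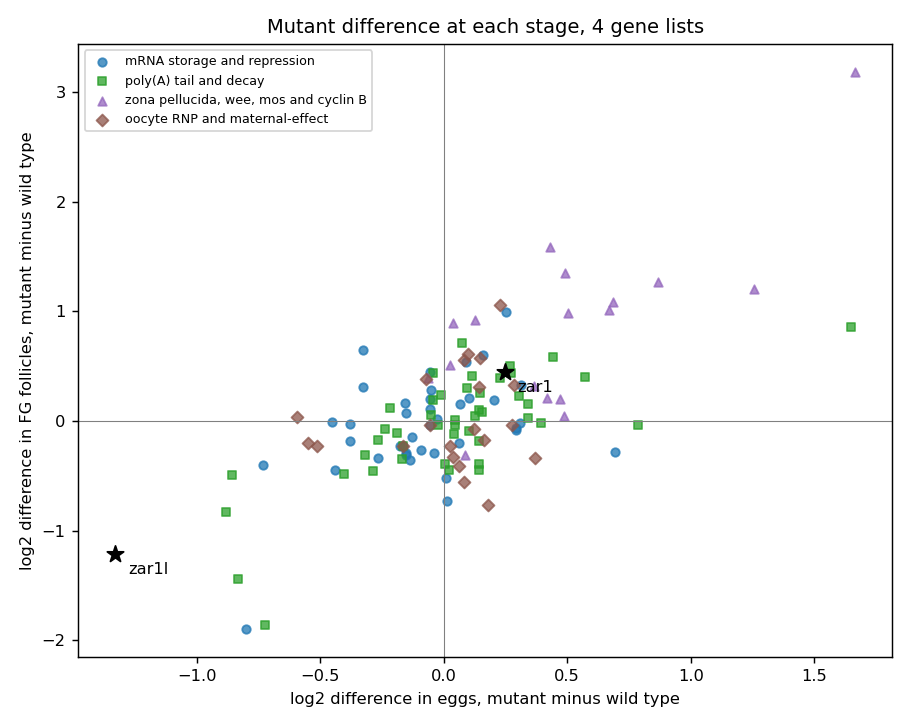
Log2 difference of mutant minus wild type in eggs (horizontal) and in FG follicles (vertical) for the tested genes of 4 lists, with zar1 and zar1l as stars, in units of log2 (FPKM + 1). zar1l lies at -1.33 and -1.21, apart from zar1 at 0.25 and 0.45, and zp2.5 is the point with the largest values in both directions, 1.67 and 3.19.

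Genes with the most similar profiles were taken from 7565 tested genes with an SD of at least 0.5 over the libraries, by the root mean square difference of centred log2 values over the 18 libraries. The closest to zar1 were hspa5, the ER chaperone BiP (0.263), pak1ip1 (0.276) and nop16 (0.286), both of ribosome assembly in the nucleolus, armc1l (0.303) and si:ch211-14a17.7 (0.320), a zona pellucida 3 family gene by its RefSeq symbol. hspa5 averaged 12.5 ± 3.67 FPKM in mutant eggs, against 10.97 ± 1.72 in wild-type eggs (SD, n = 5 each), and 325 ± 62.4 in mutant FG follicles, against 335 ± 78.6 in wild-type FG follicles (SD, n = 4 each). The measure of zar1 is ruled by the gap between stages, which gave it an SD of 2.53 over the libraries. zar1l was in place 6670 of likeness to zar1.

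The closest to zar1l were zgc:153867 (0.342), si:ch211-199b20.3 (0.352), aig1 (0.386), sardh, the sarcosine dehydrogenase gene (0.407), and alkbh4, a dioxygenase gene (0.409). The values are larger than those for zar1 although zar1l had an SD of 0.985. si:ch211-199b20.3 averaged 7.04 ± 1.86 FPKM in mutant eggs, against 14.1 ± 2.70 in wild-type eggs (SD, n = 5 each), and 2.201 ± 0.125 in mutant FG follicles, against 6.41 ± 1.54 in wild-type FG follicles (SD, n = 4 each). Of the 5, alkbh4 was nearest to zar1l in level, with 69.7 ± 25.2 FPKM in mutant eggs, against 100.3 ± 25.9 in wild-type eggs (SD, n = 5 each), and 21.3 ± 2.76 in mutant FG follicles, against 44.3 ± 6.10 in wild-type FG follicles (SD, n = 4 each).

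**Figure D5:**
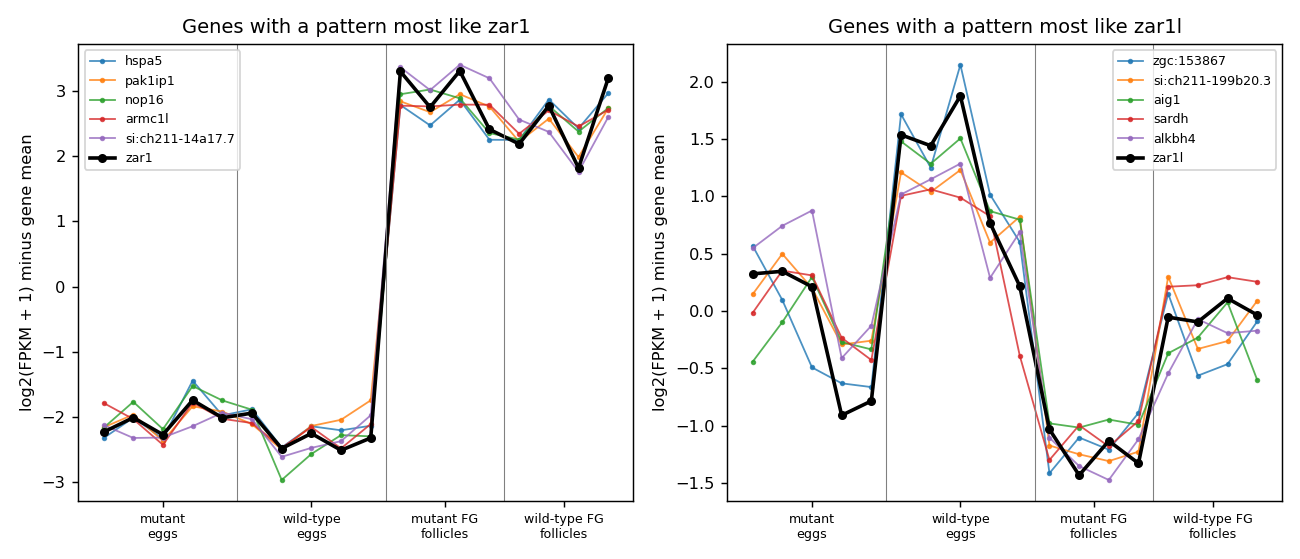
Centred log2 (FPKM + 1) in the 18 libraries, in replicate order within each group, of zar1 (left, black) and zar1l (right, black) with the 5 genes nearest to each in profile. Lines join libraries to guide the eye. The genes beside zar1 share the step between eggs and FG follicles, and those beside zar1l have lower means in mutants at both stages.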

How the data were processed

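RNA of an integrity number of at least 7 went into stranded TruSeq libraries of mRNA, per the labels. The authors deposited FPKM values. HTSeq, Cufflinks, HISAT2 and Trimmomatic are named in the submitters' processing notes, with GRCz11 as the genome build. Versions, roles, the use of strand and the handling of shared reads are not given in the sources used here. Whole reads could not be recovered from the values.

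From the FPKM values, log2(FPKM + 1) was taken, genes that reached an FPKM of 1 in 4 or more libraries were kept (10547 of 25432), and 4 group means were fitted with limma 3.58.1 (eBayes with a trend) in R 4.3.3, with 14 residual degrees of freedom. Simulated data were used to check the code. The members, lists and tests were chosen with earlier results of these data known. Of each list, the genes named were mostly taken from the called genes with the largest changes, not all of which are described. The 5 nearest profiles, the nearest genes on the chromosome and sinhcaf are named as well. Symbols absent from the table were matched through RefSeq synonyms for 7 list genes. Same-numbered egg libraries correlated at 0.11 to 0.45 over 5 pairs, and same-numbered FG follicle libraries at -0.12 to -0.023 over 4 pairs. The same number was the best match for 2 of 5 mutant egg libraries and 0 of 4 mutant FG follicle libraries. Mutant eggs 1 to 3 all matched wild-type egg library 3 best, and mutant eggs 4 and 5 matched wild-type egg library 4. This follows the split of the egg libraries and does not show pairs by number.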

Additional observations from a re-analysis of the deposited data

Results flagged for a closer look

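No library of zar1, zar1l, their ratio, sum or share stood out from its group by Dixon's test over 20 groups of values, where chance alone gives about 1 in 20. The mutant difference itself differed between stages, by limma's interaction term, for 6 of 27 named list genes, which had been named for being called with large changes. These were 6 of the 121 tested genes of the 4 lists, where 6.95% of all tested genes were called. For edc4, an enhancer of mRNA decapping, the value in eggs minus that in FG follicles was 0.61 on the log2 scale (limma adjusted p = 0.0439), with log2 differences of -0.83 in eggs and -1.44 in FG follicles. edc4 averaged 0.0361 FPKM in mutant eggs and 0.0224 in mutant FG follicles, so that with 1 added these values follow the wild-type levels of 0.877 in eggs and 1.79 in FG follicles. With a pseudocount of 0.1 they were -2.79 and -3.94, and their difference of 1.15 was not called (limma adjusted p = 0.146). For cnot6l, a deadenylase subunit, it was 1.14 (limma adjusted p = 0.000473), with -0.72 in eggs and -1.86 in FG follicles, where it averaged 0.0440 ± 0.0438 FPKM in mutants, against 2.81 ± 0.400 in wild type (SD, n = 4 each). With a pseudocount of 0.1 the values of cnot6l were -2.30 and -4.38, and with median-of-ratios scaling the difference of 0.50 was not called (limma adjusted p = 0.194). For cnot7 it was 0.79 (limma adjusted p = 0.0166), with 1.65 in eggs and 0.86 in FG follicles. cnot7 was low in FG follicles (1.16 FPKM in mutants, against 0.182 in wild type), and with a pseudocount of 0.1 the values were 2.14 and 2.11 and their difference 0.03 (limma adjusted p = 0.978). For larp1 it was -0.63 (limma adjusted p = 0.0181), with -0.33 in eggs and 0.31 in FG follicles. For gdf9 it was -0.83 (limma adjusted p = 0.0492), with 0.23 in eggs and 1.06 in FG follicles, and the call was lost with a pseudocount of 0.1 (limma adjusted p = 0.0844). For h1m it was 0.64 (limma adjusted p = 0.0148), with 0.08 in eggs and -0.56 in FG follicles, and the call was lost with median-of-ratios scaling (limma adjusted p = 0.334).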

How the results depend on the processing

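Up to 30 alternatives were run, 4 of them added after seeing the data (a block within stage, egg libraries 1 to 3 or 4 and 5 alone, and mutant FG follicle libraries 1 and 3 averaged). zar1l in mutants kept its direction under all of them, with log2 differences of -1.57 to -1.14 in eggs (highest adjusted p = 0.0401) and -1.28 to -1.08 in FG follicles, where median-of-ratios scaling alone lost the call (-1.18, adjusted p = 0.057). Several alternatives could not move a genotype difference and changed only its error or adjusted p. Examples are dropping the filter or the trend, adding a block, or leaving out a library of the other stage. In mutants, rescaling to the same FPKM sum (TPM) alone lost the call of zar1l between stages (0.58, adjusted p = 0.0675) and turned that of wee2 (-0.0247, adjusted p = 0.894). The cause was not tested. zar1 between stages ran from -5.61 to -4.01 in mutants and from -5.20 to -3.68 in wild type, and zar1l from 0.58 to 2.08 and from 0.94 to 2.36. With single libraries left out, the interaction ran from -0.434 to 0.0236 for zar1 and from -0.355 to 0.0695 for zar1l, the sign turning without wild-type FG follicle library 3 for zar1 and without mutant egg library 4 or 5 or wild-type egg library 3 for zar1l, with no call. The log2 ratio of zar1l to zar1 in FG follicles ran from -1.90 to -1.39, with an exact permutation p of 0.0571 without mutant library 1, 2 or 3, where fewer libraries were left. With the replicate number as a block (the replicate block), zar1l was at -1.33 in eggs (adjusted p = 0.00011) and -1.21 in FG follicles (adjusted p = 0.000543), and besides larp1 and zp2.1 in eggs and dcp1a in FG follicles (adjusted p = 0.0612) it ended no genotype call of a named gene. It ended the calls of edc4 and gdf9 for the difference between stages (adjusted p = 0.0626 and 0.0639). Calls over all genes moved from 1588 to 854 with egg libraries 1 to 3 and to 496 with libraries 4 and 5, from 2475 to 3753 without a filter in FG follicles, and from 733 to 372 (pseudocount 0.1), 473 (TPM) and 469 (TPM without mitochondrial genes) for the interaction. Scaling also moved the median of all genes, by -0.64 and -0.47 with TPM and by 0.71 and 0.75 with median-of-ratios between stages in mutants and wild type, and the share of higher calls in eggs from 48.8% to 34.4% with TPM, 38.6% with median-of-ratios and 65.3% with TPM without mitochondrial genes, and in FG follicles from 42.9% to 59.9% with TPM.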
